A study of Homo sapiens with 12 samples.

Results

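The effect of losing miR-34a, miR-34b and miR-34c in cells that received no drug was described from the 6 libraries of DMSO-treated HCT116 cells, out of 12 libraries in the series. HCT116 is an established colorectal cancer line. The *miR-34abc-KO* cells lack the sequences of all 3 mature miRNAs after CRISPR-Cas9 deletion, and the *WT* cells passed through the same procedure with a Cas9 plasmid that carried no guide RNA. Both genotypes were grown from single cells and received the vehicle DMSO for 48 h, in 3 libraries each, and the text of the study does not say whether the 3 libraries of a genotype come from different clones. A difference between the genotypes therefore cannot be told apart from a difference between the clones that were sequenced, and the p-values measure the spread between these libraries. Genes were retained by a single rule, at least 20 counts in at least 1 of the libraries fitted, which kept 16123 of 60580 listed symbols. In bulk RNA, fewer cells that express a gene and less of its RNA per cell cannot be told apart.

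MicroRNAs of the miR-34 family are encoded at 2 loci, are transcribed under direct control of p53, and guide Argonaute proteins to mRNAs that pair with bases 2 to 8 of the miRNA, the seed. Pairing in the 3′ UTR lowers the stability or the translation of the mRNA, so that mRNAs of direct targets are usually lower where the miRNA is present. In colorectal cells the family is known for targets that drive the cell cycle, receptor signaling and epithelial-mesenchymal transition (EMT), and its loci are often silenced in colorectal tumors.

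The mature miRNAs are shown because their seeds define the target sites described below. In RefSeq (GRCh38.p14), *MIR34A* occupies chr1:9151668-9151777 on the minus strand, and *MIR34B* and *MIR34C* occupy chr11:111512938-111513021 and chr11:111513439-111513515 on the plus strand. Capitals mark the seed, sequences run 5′ to 3′, and hsa-miR-34c-5p is named only.
hsa-miR-34a-5p: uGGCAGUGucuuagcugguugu
hsa-miR-34b-5p: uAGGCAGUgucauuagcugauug
hsa-miR-34a-3p: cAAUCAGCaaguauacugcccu
hsa-miR-34b-3p: cAAUCACUaacuccacugccau
hsa-miR-34c-3p: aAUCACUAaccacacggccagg
The 5p seeds of miR-34a and miR-34b are the same 6 bases shifted by 1 position, and therefore pair with different, overlapping words. The sequence lies at chr1:9151735-9151756 (minus strand) for miR-34a-5p and at chr11:111512950-111512972 (plus strand) for miR-34b-5p.

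Total counts per library were 23747699 to 35249026 with a median of 26216342, without a separation of the genotypes by depth. The logarithms of CPM (counts relative to the scaled total of the library) correlated with r = 0.990 to 0.993 within a genotype and with r = 0.974 to 0.978 between genotypes (over genes, which do not count as replicates). The counts of a library labelled as *WT* 5-FU replicate 1 matched *WT* DMSO replicate 3 exactly in all 60580 symbols, and the column of that file is named as a *WT* control. It was left out of the 5-FU group, and the column names of the other 2 *WT* libraries under 5-FU carry other replicate numbers than their labels. The epithelial origin was evident from 7 of 10 markers of colonic epithelium with more than 3 counts in every DMSO library, with a summed level of 5383 to 5659 CPM in *WT* and 5555 to 5761 CPM in *miR-34abc-KO* cells, which overlap, whereas the stem cell marker *LGR5* and the intestinal factor *CDX1* did not exceed 3 counts in any of them. Of the 8 epithelial markers tested for a difference, 1 (12.5%) was called lower in *miR-34abc-KO* cells and 0 higher. Over all genes 4.97% were called lower and 9.1% higher. By the FDR alone 4 markers were lower and 1 higher, against 21.9% and 24.5% of all genes. Of 5 leukocyte markers, 0 had more than 3 counts in every DMSO library and their sum was at most 0.221 CPM. Endothelial markers summed to at most 1.9 CPM (2 of 4 over 3 counts, *CDH5* not). Of 6 fibroblast markers, 2 passed and *COL1A2*, *DCN* and *LUM* did not, with a sum of 22.1 to 27.0 CPM in *WT* and 46.5 to 51.0 CPM in *miR-34abc-KO* cells, so that this sum was higher in all 3 libraries of the latter.

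Each of the 3 hairpin genes stood at 0 counts in every library, so that the deletion itself could not be checked in these counts. The host transcript of miR-34a, *MIR34AHG*, was found at 4.69, 4.46 and 5.36 CPM in *WT* and 22.5, 21.9 and 22.2 CPM in *miR-34abc-KO* cells (log2 fold change 2.19, SE 0.08, edgeR FDR 9.42e-12). All 3 *miR-34abc-KO* libraries were above all *WT* libraries, and since only the miRNA sequence within the host gene was deleted, these reads may come from outside the deletion and do not check it. Among the genes within 500 kb of the 2 loci, *SIK2*, a salt-inducible kinase gene near *MIR34B* and *MIR34C*, rose from a mean of 40.8 to 70.4 CPM (log2 fold change 0.78) and *DIXDC1*, which encodes a Wnt pathway protein, fell from 16.2 to 10.5 CPM (log2 fold change −0.63). The mean of *ENO1*, a glycolytic enzyme gene beside *MIR34A*, was 3768 CPM in *WT* and 2722 CPM in *miR-34abc-KO* cells (log2 fold change −0.47, below the minimum fold change, chosen after its values were seen). Of 13 genes of miRNA processing and action that were tested, 1 (7.69%) fell and 0 rose, against 4.97% and 9.1% of all genes. That gene, *AGO2*, which encodes the slicer Argonaute, had 185, 171 and 192 CPM in *WT* and 100.3, 95.5 and 84.3 CPM in *miR-34abc-KO* cells (log2 fold change −0.97, SE 0.07, edgeR FDR 1.13e-08), and it lies in a stretch of chromosome 8 in which most mRNAs were lower, described below.

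Of the 16123 genes tested, 1467 (9.1%) were called higher and 802 (4.97%) lower in *miR-34abc-KO* cells, where a call required an FDR below 0.05 by the quasi-likelihood test of edgeR and a fold change above 1.5. By the FDR alone 3943 (24.5%) were higher and 3529 (21.9%) lower. The differences were mostly moderate, with a median fold change of 1.93 among the higher and 1.87 among the lower mRNAs. A fold change above 2 was reached by 666 higher and 340 lower mRNAs, and one above 4 by 133 and 104. In 2203 of the 2269 called mRNAs the 3 libraries of a genotype lay beyond all 3 libraries of the other, compared with 9266 (57.5%) of all genes tested. Calls depended on level, with 20.8% of genes below 1 CPM, 25.8% between 1 and 10 CPM, 8.88% between 10 and 100 CPM and 7.20% above 100 CPM called in either direction. Long non-coding RNAs were called higher in 17.2% and lower in 6.46% of 790 genes, and protein-coding mRNAs in 7.97% and 4.95% of 13264 genes. Without replicate 3 of the *WT* cells, whose counts also appear under a 5-FU label, 1377 mRNAs were called higher and 785 lower. With the identical file kept under its 5-FU label, which widens the estimated spread, the numbers were 1028 and 619, and 23 of the 155 called genes named below lost their call.

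**Figure D1:**
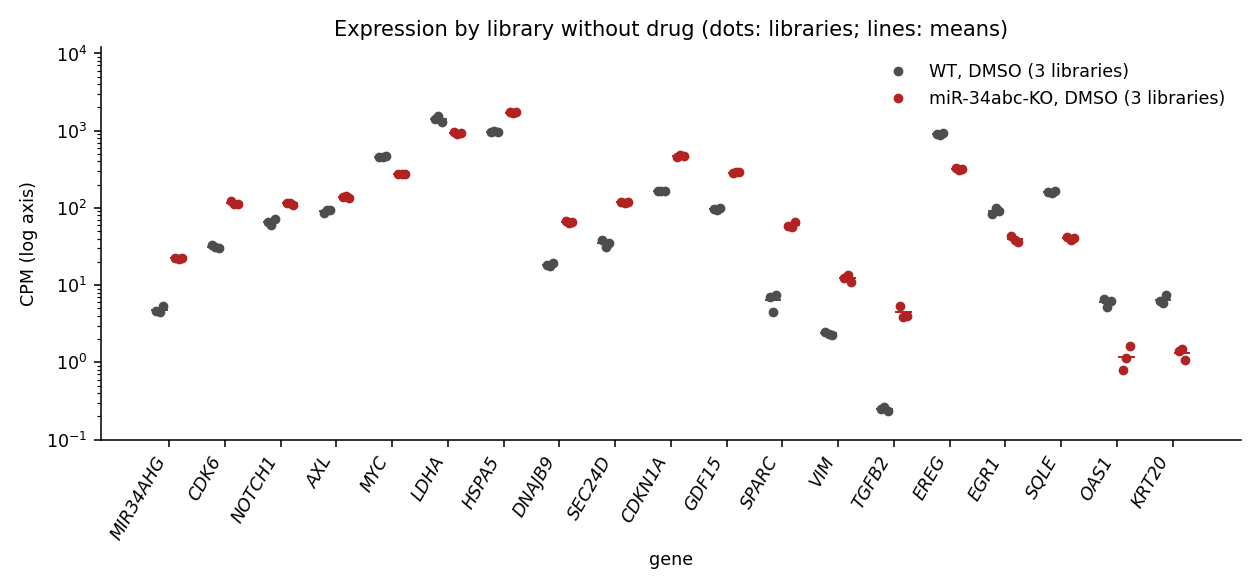
Expression of 19 named genes in each DMSO library, in CPM on a logarithmic axis, with 1 dot per library (*WT* in gray, *miR-34abc-KO* in red) and lines at the means. For *CDKN1A* the *WT* libraries sit at 166 to 168 CPM and the *miR-34abc-KO* libraries at 453 to 488 CPM, and for all 19 genes the dots of 1 genotype lie beyond those of the other.

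Among the strongest increases was that of *TCF21*, a mesenchymal transcription factor gene on chromosome 6, which had 4 counts in the *WT* libraries together and 252 to 352 counts in each *miR-34abc-KO* library, a ratio of 239 (95% counting interval 93.0 to 879). *TARID*, an antisense RNA that overlaps *TCF21*, had 0.144, 0.221 and 0.0869 CPM in *WT* and 11.1, 11.1 and 12.6 CPM in *miR-34abc-KO* cells (log2 fold change 6.31), and because strand was not stated for the counting, reads of this pair cannot be told apart. Several of the other genes encode secreted or surface proteins. *MIA*, a gene for a small secreted protein, had 1 count in *WT* cells and 71 to 129 in each *miR-34abc-KO* library, a ratio of 301 (53.6 to 11900). *TM4SF18*, a tetraspanin-like membrane protein gene, was found at 1.16, 1.1 and 1.51 CPM in *WT* and 55.9, 59.5 and 59.1 CPM in *miR-34abc-KO* cells (log2 fold change 5.50, SE 0.10, edgeR FDR 2.97e-15). The co-stimulatory ligand gene *TNFSF18* had 2.17, 2.6 and 2.52 CPM in *WT* and 48.6, 49.8 and 49.9 CPM in *miR-34abc-KO* cells (log2 fold change 4.35). The cell adhesion gene *CNTN1* had 0.253, 0.176 and 0.347 CPM in *WT* and 10.6, 9.11 and 8.42 CPM in *miR-34abc-KO* cells (log2 fold change 5.09), and *TGFB2*, a TGF-β ligand gene, had 0.253, 0.265 and 0.232 CPM in *WT* and 5.43, 3.92 and 3.95 CPM in *miR-34abc-KO* cells (log2 fold change 4.13). In each of these genes every *miR-34abc-KO* library exceeded every *WT* library by several fold. The serine protease gene *PRSS33*, the follistatin-like gene *FSTL5*, the kinase gene *STK32A*, the KRAB zinc finger gene *ZNF91* and the lectin gene *CLEC18B* had log2 fold changes of 5.41, 5.18, 4.44, 4.36 and 3.87, at 0 to 0.221 CPM in each *WT* library. Summed counts gave ratios of 40.7 (13.6 to 201) for *FSTL5* and 23.1 (9.61 to 72.7) for *STK32A*. *ANKRD1*, a gene of the YAP response, met the same rule of absence in *WT* cells, with 4 counts against 20 to 25 in each *miR-34abc-KO* library, a ratio of 19.1 (7.13 to 72.0). These intervals cover counting error only.

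Among the decreases, *LY6K*, which encodes a GPI-anchored surface protein, had 28 to 37 counts in each *WT* library and 0 in the *miR-34abc-KO* libraries, at least 10.5-fold lower against a floor of 3 counts per library. *LY6K* lies in a stretch of chromosome 8 in which many mRNAs were lower, described below. It overlaps *LNCOC1* on the opposite strand, which also fell (log2 fold change −0.63). The non-coding *AL034430.1* had 71 to 96 counts in each *WT* library and likewise 0 in *miR-34abc-KO* cells, at least 25.7-fold lower. *NUDT7*, a gene for a peroxisomal coenzyme A hydrolase, had a total of 3 counts against 123 to 156 in each *WT* library (132-fold, 45 to 644), and *MITF*, a transcription factor gene of the lysosomal and melanocyte programs, had 1 count against 32 to 43 (104-fold, 18.4 to 4160). Reduced KRAB zinc finger genes comprised *ZNF525*, with 5.38, 6.22 and 5.7 CPM in *WT* and 0.209, 0.341 and 0.132 CPM in *miR-34abc-KO* cells (log2 fold change −4.69, SE 0.27, edgeR FDR 1.12e-09), and *ZNF850*, whose summed counts differed 14.5-fold (7.40 to 32.3). *ZNF850* overlaps *ZNF567* on the opposite strand, which also fell (log2 fold change −0.88). The long non-coding RNAs *SCAT8*, *AFAP1-AS1* and *LINC01405* had log2 fold changes of −4.18, −3.87 and −3.38, the first and second of these together with the genes they overlap, *EYS* (−1.07) and *AFAP1* (−0.80). The membrane protease gene *TMPRSS4*, often high in carcinomas, had 2.09, 3.04 and 2.37 CPM in *WT* and 0.125, 0.341 and 0.362 CPM in *miR-34abc-KO* cells (log2 fold change −3.12). *TMEM154* and *SPATC1L* had log2 fold changes of −3.61 and −3.58. The read-through transcript *INO80B-WBP1* (log2 fold change −3.69) shares its exons with *WBP1*, which rose (0.66), so that the assignment of its reads is uncertain. When 1 factor of unwanted variation was removed with RUVg (a factor of which 98.2% lay between the treatments), *FSTL5* (5.33), *CLEC18B* (2.81), *INO80B-WBP1* (−3.91) and *TMEM154* (−3.21) no longer passed the test. Values in parentheses after such genes, here and below, are log2 fold changes in the RUVg fit.

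The published targets of miR-34 were examined next, since their mRNAs are the ones that the loss of the miRNAs would reach directly. The list, like the other lists, was written from general knowledge with earlier results of these data known. It held 63 genes, of which 58 were tested. Of these, 8 rose and 4 fell, 13.8% and 6.9% against 9.1% and 4.97% of all genes, and the median log2 fold change was 0.07 against 0.03 over all genes. By the FDR alone 19 were higher and 17 lower, against 24.5% and 21.9% of all genes. A 3′ UTR of GENCODE release 44 held the miR-34a word CACTGCC, which pairs with the seed, in 40 of them, and 8 of those 40 rose and 3 fell (median 0.10). Of the 18 without this word, 0 rose and 1 (*MYC*) fell (median −0.07). The word was searched on the strand of the transcript, and 15.7% of all 18952 annotated 3′ UTRs hold it. The sites below are from genes that passed the test, the 3 that fell and some of the 8 that rose. Those of *L1CAM*, *AXIN2* and *VAMP2*, which also rose, are not printed. Capitals mark the match, which is 8 bases long (CACTGCCA) where an A follows.

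The sites of CDK6, AXL, NOTCH1, IL6R and ATG4B, whose mRNAs rose, and of LDHA, KLF4 and HNF4A, whose mRNAs fell, read as follows in GRCh38.
CDK6 (chr7:92614045-92614067, minus strand): gtactttctgccacaCACTGCCt
AXL (chr19:41259933-41259955, plus strand): aggatccaagctaagCACTGCCA
NOTCH1 (chr9:136495884-136495906, minus strand): tattttacacagaaaCACTGCCt
IL6R (chr1:154465439-154465461, plus strand): gcaaaagatgcttctCACTGCCA
ATG4B (chr2:241672515-241672537, plus strand): agagtgttctctcgaCACTGCCA
LDHA (chr11:18407523-18407545, plus strand): ccacctctgacgcacCACTGCCA
KLF4 (chr9:107485719-107485741, minus strand): agtggatatgacccaCACTGCCA
HNF4A (chr20:44429814-44429836, plus strand): ctaagggccacatccCACTGCCA
The same word thus stands in mRNAs that differed in opposite directions.

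Among cell cycle genes of the list, *CDK6*, the kinase partner of D-type cyclins, had 32.7, 31.6 and 30.5 CPM in *WT* and 123, 113 and 114 CPM in *miR-34abc-KO* cells (log2 fold change 1.89, SE 0.07, edgeR FDR 1.25e-11). Its *miR-34abc-KO* libraries were more than 3-fold above the *WT* libraries. It was the only member of the 26 tested cell cycle and transcription targets to rise (3.85%), and 3 (11.5%) fell (median −0.16). Over all genes 9.1% rose and 4.97% fell. *MYC*, the proliferation factor, had 453, 455 and 468 CPM in *WT* and 272, 277 and 274 CPM in *miR-34abc-KO* cells (log2 fold change −0.74, SE 0.05, edgeR FDR 2.2e-08), *KLF4*, a differentiation factor, had a log2 fold change of −0.87 (SE 0.08), and *HNF4A*, the nuclear receptor of intestinal epithelium, had 1.66, 2.21 and 1.53 CPM in *WT* and 0.501, 0.894 and 0.823 CPM in *miR-34abc-KO* cells (log2 fold change −1.26). *MYC* holds no CACTGCC in its 3′ UTR but 1 ACTGCCT, the word that pairs with the seed of miR-34b. It lies in the lower stretch of chromosome 8. *CCND1* (757, 705 and 774 CPM in *WT* and 622, 638 and 629 CPM in *miR-34abc-KO* cells) and *FOXM1* (110.3, 119.6 and 109.6 CPM in *WT* and 95.5, 98.1 and 94 CPM in *miR-34abc-KO* cells) had log2 fold changes of −0.24 and −0.24, below the minimum fold change.

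Receptors made up 4 of the 8 targets that rose. Of 14 tested receptors and ligands, 4 (28.6%) were higher and 0 lower, against 9.1% and 4.97% of all genes (median 0.18). The interleukin-6 receptor gene *IL6R* had 6.21, 6.71 and 6.17 CPM in *WT* and 14.5, 13.3 and 12.7 CPM in *miR-34abc-KO* cells (log2 fold change 1.09, SE 0.09, edgeR FDR 7.24e-08), and *NOTCH1*, the Notch receptor, had 64.9, 60.8 and 71.2 CPM in *WT* and 117, 117 and 109 CPM in *miR-34abc-KO* cells (log2 fold change 0.80, SE 0.08, edgeR FDR 4.69e-07) and lies in a stretch of chromosome 9 in which many mRNAs were higher. The adhesion receptor gene *L1CAM* was at 25.9, 28.8 and 30.3 CPM in *WT* and 54.5, 56.6 and 52.6 CPM in *miR-34abc-KO* cells (log2 fold change 0.94). *AXL*, a receptor tyrosine kinase gene, had 87.3, 95.2 and 92.7 CPM in *WT* and 138, 142 and 136 CPM in *miR-34abc-KO* cells (log2 fold change 0.59, SE 0.05, edgeR FDR 6.92e-08). Its fold change of 1.51 was just over the minimum, and it dropped below it without *WT* replicate 1 (0.56), without *miR-34abc-KO* replicate 2 (0.58) and with other scalings (0.57 to 0.58). *MET*, the receptor of hepatocyte growth factor and a target with well-known sites, had 612, 579 and 639 CPM in *WT* and 573, 544 and 564 CPM in *miR-34abc-KO* cells (log2 fold change −0.12, edgeR FDR 0.0821). *AXIN2*, the Wnt feedback scaffold, rose (log2 fold change 0.79, SE 0.09), whereas the EMT factor *SNAI1* had 7.94, 8.69 and 8.77 CPM in *WT* and 8.23, 8.13 and 7.57 CPM in *miR-34abc-KO* cells, with overlapping groups. *ATG4B*, a protease gene of autophagosome formation, had 36, 35.7 and 37.7 CPM in *WT* and 78.9, 78.7 and 79.4 CPM in *miR-34abc-KO* cells (log2 fold change 1.11, SE 0.07, edgeR FDR 1.59e-09) and lies in a stretch of chromosome 2 in which most mRNAs were higher. *LDHA*, the lactate dehydrogenase gene, had 1434, 1537 and 1305 CPM in *WT* and 953, 909 and 931 CPM in *miR-34abc-KO* cells (log2 fold change −0.61, SE 0.06, edgeR FDR 1.9e-07) and was below the minimum fold change without *WT* replicate 2 (−0.56). The survival gene *BCL2* had 3.68, 4.1 and 3.85 CPM in *WT* and 4.09, 3.62 and 3.46 CPM in *miR-34abc-KO* cells and did not differ beyond the spread of the libraries (log2 fold change −0.06). With the RUVg factor removed, *NOTCH1* (0.27), *AXIN2* (0.71), *LDHA* (−0.23) and *HNF4A* (−2.13) did not pass, and 2 targets fell in place of 4.

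Over all protein-coding genes with an annotated 3′ UTR (13242 tested), the word of miR-34a was met in 2319. Of these genes 8.58% were called higher and 4.70% lower, compared with 7.82% and 4.99% of the 10923 genes without it, and the median log2 fold changes were 0.04 and −0.00. With the 8-base word (778 genes) the shares were 9.0% and 6.04%, and with 2 or more sites (426 genes) 9.39% and 4.23%, at a median of 0.07. For the word of miR-34b (ACTGCCT, which overlaps that of miR-34a by 6 bases), 7.92% of 2095 genes with it and 7.96% of 11147 genes without it were called higher. UTR length differed between the classes, with a median of 2486 bases with a miR-34a site and 1062 bases without. In the shortest, middle and longest of 3 equal length classes of UTRs, 6.83%, 10.0% and 8.09% of genes with the word were called higher, against 8.24%, 7.44% and 7.71% of genes without it. The difference in this share between site and no site did not have the same sign in all 3 length classes. The median log2 fold change was higher with the word in each, at 0.046, 0.040 and 0.031 against −0.010, −0.0076 and 0.0057. By level, the median was higher with the word except below 1 CPM (−0.0070 against 0.13). These shares and medians are descriptions, to which no test was applied.

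**Figure D2:**
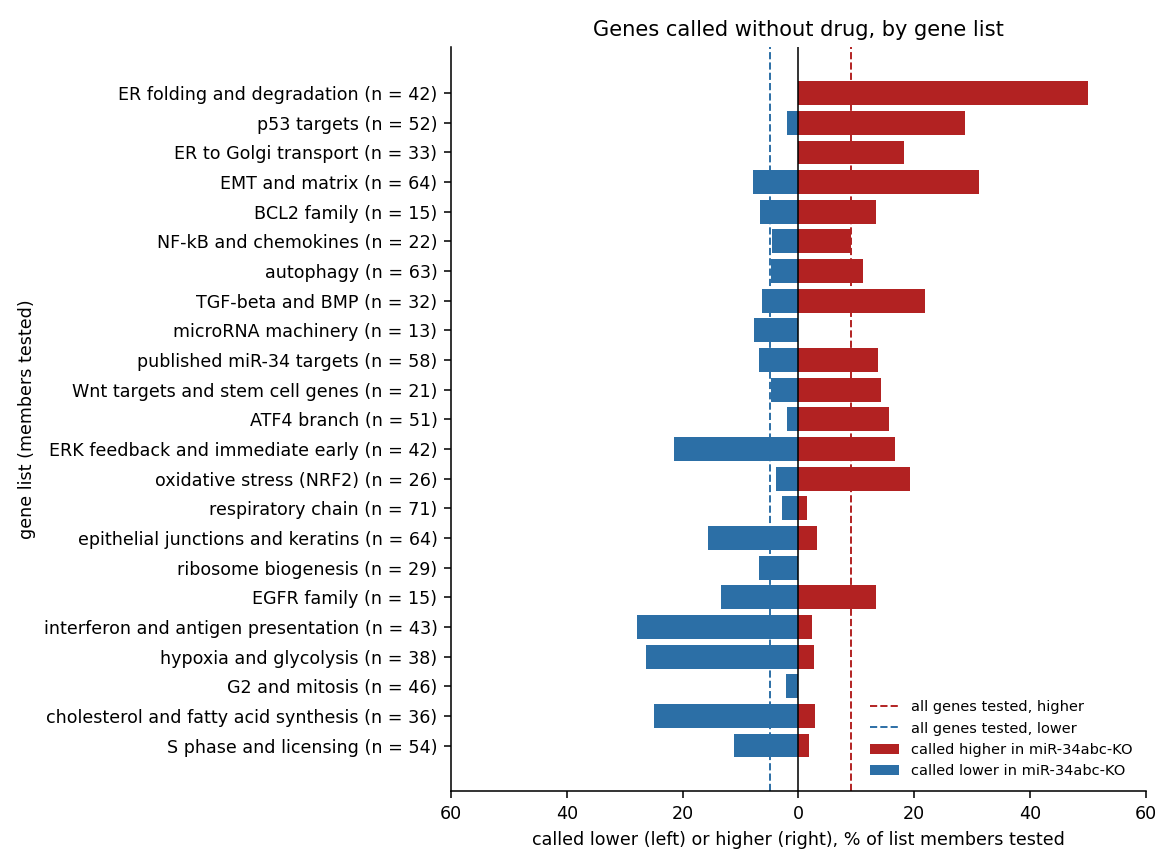
Percentage of the tested members of each gene list that were called higher (bars to the right) or lower (bars to the left) in *miR-34abc-KO* than in *WT* cells in DMSO, with dashed lines at the percentages over all genes tested (9.1% and 4.97%). ER folding stands out with 50% higher and 0% lower, and interferon and antigen presentation, hypoxia and glycolysis (26.3%), and cholesterol and fatty acid synthesis (25.0%) extend farthest to the left.

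The endoplasmic reticulum (ER) folding machinery was the group with the most frequent increases. It comprises the chaperones, disulfide isomerases and degradation factors that the unfolded protein response induces through ATF6 and XBP1. Of 42 tested members 21 rose and 0 fell, 50% against 9.1% of all genes, with a median log2 fold change of 0.64. In the single libraries the median stood at 0.609, 0.637 and 0.649 above the *WT* mean in *miR-34abc-KO* cells and within 0.0105 of it in *WT* cells. Among the 23 chaperones and folding enzymes 16 rose (median 0.83). *HSPA5*, the gene of the central ER chaperone BiP, had 973, 981 and 949 CPM in *WT* and 1728, 1712 and 1723 CPM in *miR-34abc-KO* cells (log2 fold change 0.83, SE 0.04, edgeR FDR 8.4e-11), and it lies in another stretch of chromosome 9 with many higher mRNAs. *DNAJB9*, a BiP co-chaperone gene, had 18.1, 17.9 and 19.5 CPM in *WT* and 67.6, 64.7 and 66.5 CPM in *miR-34abc-KO* cells (log2 fold change 1.84, SE 0.07, edgeR FDR 8.71e-12). The libraries of each genotype lay within a narrow range and far from the other genotype. The disulfide isomerase genes *P4HB* (1172, 1184 and 1167 CPM in *WT* and 2614, 2707 and 2734 CPM in *miR-34abc-KO* cells) and *PDIA4* (436, 428 and 439.7 CPM in *WT* and 941, 959.7 and 977 CPM in *miR-34abc-KO* cells) had log2 fold changes of 1.19 and 1.14. The calcium-binding chaperone gene *CALR* and the ER member of the HSP90 family, *HSP90B1*, rose by 0.99 (SE 0.04) and 0.71 (SE 0.05) on the log2 scale. *CRELD2* and *SDF2L1*, both ER stress-inducible, had log2 fold changes of 1.41 and 0.96, and *HERPUD1*, a factor of ER-associated degradation, one of 0.74. *CREB3L2*, a membrane-bound transcription factor gene of the secretory pathway, had 92.5, 82.2 and 97.1 CPM in *WT* and 248, 236 and 232 CPM in *miR-34abc-KO* cells (log2 fold change 1.40). *XBP1* itself had 87.6, 88.9 and 78.2 CPM in *WT* and 109.6, 109 and 118 CPM in *miR-34abc-KO* cells (log2 fold change 0.41), below the minimum fold change. *SDF2L1* (0.21) did not pass with the RUVg factor removed.

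Transport from the ER to the Golgi followed with fewer calls. Of 33 members 6 (18.2%) rose and 0 fell, against 9.1% and 4.97% of all genes. By the FDR alone 22 were higher (median 0.29), against 24.5% of all genes. The COPII coat gene *SEC24D* had 38.1, 31.6 and 35.4 CPM in *WT* and 120.2, 116 and 119 CPM in *miR-34abc-KO* cells (log2 fold change 1.75, SE 0.06, edgeR FDR 5.92e-12), and all 3 *miR-34abc-KO* libraries were more than 3-fold above *WT*. Cargo receptors rose as well, with log2 fold changes of 1.20 for *SURF4*, 1.01 for *TMED9*, 0.76 for *TMED10* and 0.71 for *TMED2*. *SURF4* lies in a stretch of chromosome 9 described below. The KDEL receptor gene *KDELR3* had 51.6, 55.7 and 54.9 CPM in *WT* and 71.4, 67.4 and 74.1 CPM in *miR-34abc-KO* cells and a log2 fold change of 0.39, below the minimum. *CREB3L1*, a transcription factor gene related to *CREB3L2*, stood at less than 0.5 CPM in every library, with overlapping groups.

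In contrast, the ATF4 branch, which induces amino acid synthesis and transport when translation initiation is inhibited, had a median log2 fold change of 0.00. Of 51 members 8 (15.7%) rose and 1 (1.96%) fell, against 9.1% and 4.97% of all genes, and by the FDR alone 15 were higher and 16 lower, against 24.5% and 21.9% of all genes. The mean of *ATF4* mRNA was 296 ± 11.6 CPM (SD, n = 3) in *WT* and 303 ± 2.76 CPM (SD, n = 3) in *miR-34abc-KO* cells, with overlapping libraries. Subunits of a transporter rose. The cystine transporter gene *SLC7A11* had 22.7, 23.6 and 23.1 CPM in *WT* and 43.1, 41.4 and 39.5 CPM in *miR-34abc-KO* cells (log2 fold change 0.84, SE 0.12, edgeR FDR 2.16e-05), and its partner *SLC3A2* had 193, 203 and 188 CPM in *WT* and 402, 422 and 397 CPM in *miR-34abc-KO* cells (log2 fold change 1.06, SE 0.05, edgeR FDR 1.99e-10). By contrast, *PHGDH*, the first enzyme of serine synthesis, had 138, 151 and 134 CPM in *WT* and 91.1, 98 and 90.4 CPM in *miR-34abc-KO* cells (log2 fold change −0.60, SE 0.05, edgeR FDR 2.13e-07), and *ASNS*, the asparagine synthetase gene, had 95.4, 112 and 86.2 CPM in *WT* and 83.7, 81 and 82 CPM in *miR-34abc-KO* cells (log2 fold change −0.25, below the minimum). *TSC22D3* (GILZ), a glucocorticoid-induced regulator, and *GDF15*, a secreted stress cytokine, had the largest increases of the list (*GDF15* is also a p53 target), with log2 fold changes of 1.70 and 1.55. *CHAC1*, a glutathione-degrading enzyme gene, had 2.13, 1.81 and 1.65 CPM in *WT* and 3.3, 2.47 and 3.49 CPM in *miR-34abc-KO* cells (log2 fold change 0.74), whereas *DDIT3* (CHOP, 0.38), *TRIB3* (−0.34) and *DDIT4* (−0.40) were below the minimum. *NUPR1*, a stress-induced chromatin protein gene at less than 1 CPM, rose by 1.46 with overlapping libraries, and its call was lost without *WT* replicate 1 (1.02), *WT* replicate 3 (1.68), *miR-34abc-KO* replicate 2 (1.18) or *miR-34abc-KO* replicate 3 (1.23). The call of *PHGDH* was lost without *WT* replicate 2 (−0.55), *miR-34abc-KO* replicate 1 (−0.58) or *miR-34abc-KO* replicate 3 (−0.58). After removal of the RUVg factor, *CHAC1* (0.73), *NUPR1* (0.49) and *PHGDH* (−0.56) did not pass, 5 members rose in place of 8, and the median was 0.12.

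Direct p53 targets were higher more often than all genes although no drug was given. Of 52 members 15 (28.8%) rose and 1 (1.92%) fell, against 9.1% and 4.97% of all genes (median log2 fold change 0.33). *CDKN1A*, the gene of the cell cycle inhibitor p21, had 167, 166 and 168 CPM in *WT* and 453, 488 and 467 CPM in *miR-34abc-KO* cells (log2 fold change 1.49, SE 0.05, edgeR FDR 9.37e-13). The *WT* libraries lay within 2 CPM of each other and the *miR-34abc-KO* libraries far above them. *GDF15* had 98.2, 95.4 and 101 CPM in *WT* and 279.5, 288 and 294 CPM in *miR-34abc-KO* cells (log2 fold change 1.55, SE 0.08, edgeR FDR 2.6e-10). The oxidoreductase gene *TP53I3* had 16.8, 16.7 and 16 CPM in *WT* and 41.4, 47.9 and 46.4 CPM in *miR-34abc-KO* cells (log2 fold change 1.46), and *TP53INP1*, a stress-induced cofactor gene in a higher stretch of chromosome 8, had 31.4, 27.4 and 30.8 CPM in *WT* and 80.3, 81.1 and 81.4 CPM in *miR-34abc-KO* cells (log2 fold change 1.44). The antiproliferative gene *BTG2* and the death receptor gene *FAS* rose by 0.72 (SE 0.06) and 0.65 (SE 0.07) on the log2 scale. *FAS* overlaps *ACTA2* on the other strand, which also rose (0.74). *SPATA18*, a mitochondrial quality control gene, had 0 counts in *WT* and 2 to 6 counts in *miR-34abc-KO* libraries, at least 1.23-fold higher. *MDM2*, the negative regulator of p53, had 142, 146 and 134 CPM in *WT* and 197, 189 and 192 CPM in *miR-34abc-KO* cells (log2 fold change 0.45), below the minimum. The only decrease was that of *PMAIP1* (NOXA), a pro-apoptotic BH3-only gene, with 90.2, 91.6 and 90.2 CPM in *WT* and 55.4, 54 and 55 CPM in *miR-34abc-KO* cells (log2 fold change −0.73, SE 0.08, edgeR FDR 2.5e-06). Another BH3-only gene, *BBC3* (PUMA), had 22.9, 20.6 and 23.8 CPM in *WT* and 31, 38 and 34.1 CPM in *miR-34abc-KO* cells (log2 fold change 0.61, SE 0.10, edgeR FDR 8.67e-05), below the minimum fold change without *WT* replicate 2 (0.56) or *miR-34abc-KO* replicate 2 (0.54), and with the sign changed (−0.19) when the RUVg factor was removed. *SPATA18* and *PMAIP1* (−0.11) also did not pass in that fit. With the identical library kept under its 5-FU label, 4 members rose in place of 15, and *CDKN1A*, *TP53I3*, *TP53INP1*, *BTG2* and *FAS* were among those that lost their call.

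Of 15 members of the BCL2 family tested, 2 (13.3%) rose and 1 (6.67%) fell, against 9.1% and 4.97% of all genes (median 0.19). *BOK*, a pro-apoptotic effector gene, had 24.1, 24.4 and 24.2 CPM in *WT* and 37.6, 40.8 and 39.3 CPM in *miR-34abc-KO* cells (log2 fold change 0.69) and lies in the higher stretch of chromosome 2. The anti-apoptotic genes *BCL2L1* and *MCL1* had log2 fold changes of 0.36 (SE 0.05) and −0.18 (SE 0.05), both below the minimum. With the RUVg factor removed *BOK* (0.42) did not pass, 0 members rose, and the median changed its sign (−0.11). The median was 0.0065 without *WT* replicate 1, 0.093 without *miR-34abc-KO* replicate 1 and 0.12 without *miR-34abc-KO* replicate 2.

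Cell cycle mRNAs were lower by a small amount in most members. Of 54 genes of S phase and replication licensing, 6 (11.1%) fell and 1 (*CDK6*, 1.85%) rose, against 4.97% and 9.1% of all genes. By the FDR alone 39 were lower and 4 higher, against 21.9% and 24.5% of all genes, with a median log2 fold change of −0.38. The median stood at −0.387, −0.341 and −0.404 in the *miR-34abc-KO* libraries and between −0.0466 and 0.0496 in the *WT* libraries, so that the genotypes did not overlap. *MCM6*, a subunit of the replicative helicase, had 299, 300.3 and 279.8 CPM in *WT* and 186, 191 and 186 CPM in *miR-34abc-KO* cells (log2 fold change −0.64, SE 0.05, edgeR FDR 2.33e-08). *RFC5*, a clamp loader subunit gene, had 99.5, 106 and 94.5 CPM in *WT* and 60.3, 59.2 and 57.6 CPM in *miR-34abc-KO* cells (log2 fold change −0.76, SE 0.05, edgeR FDR 1.25e-08), and *PRIM1*, the primase gene, a log2 fold change of −0.69. The E2F genes *E2F8* and *E2F2* fell by 0.81 and 0.69, whereas *E2F1* had 47.3, 45.4 and 48.2 CPM in *WT* and 41.4, 44.8 and 39.1 CPM in *miR-34abc-KO* cells (log2 fold change −0.17, edgeR FDR 0.0972). *TYMS*, the thymidylate synthase and enzyme target of 5-FU, had 281, 298 and 262 CPM in *WT* and 190.5, 199.6 and 199 CPM in *miR-34abc-KO* cells, and *MCM2*, *RRM2* and *CCNE1* had log2 fold changes of −0.45, −0.38 and −0.53. The latter 4 were lower in each library but below the minimum fold change. *CDC6* had overlapping libraries (log2 fold change −0.10). Among 46 genes of G2 and mitosis, 40 were lower by the FDR alone, against 21.9% of all genes (median −0.35, but −0.03 with the RUVg factor removed). Of them 1 (2.17%) fell and 0 rose, against 4.97% and 9.1% of all genes. That gene was *MAD2L1*, a spindle checkpoint gene, with 170.0, 176 and 157 CPM in *WT* and 102, 105 and 105 CPM in *miR-34abc-KO* cells (log2 fold change −0.69, SE 0.07, edgeR FDR 1.03e-06). The proliferation marker *MKI67* had 545, 546 and 546 CPM in *WT* and 415, 396 and 365 CPM in *miR-34abc-KO* cells (log2 fold change −0.48), *TOP2A* and *CCNB1* had −0.35 and −0.49, and *PLK1* had −0.13 (edgeR FDR 0.0509). In the RUVg fit, *RFC5* (−0.53), *PRIM1* (−0.14), *MCM6* (−0.42) and *MAD2L1* (−0.15) did not pass.

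Genes of EMT and extracellular matrix were called in both directions, 20 of 64 (31.2%) higher and 5 (7.81%) lower. The shares over all genes were 9.1% and 4.97%, and the median log2 fold change of the list was 0.25. *SPARC*, a collagen-binding matrix protein gene, had 7.0, 4.54 and 7.5 CPM in *WT* and 58.3, 56.5 and 65.5 CPM in *miR-34abc-KO* cells (log2 fold change 3.22, SE 0.13, edgeR FDR 2.45e-11). *VIM*, the mesenchymal intermediate filament gene, had 2.49, 2.34 and 2.29 CPM in *WT* and 12.4, 13.4 and 11.1 CPM in *miR-34abc-KO* cells (log2 fold change 2.37, SE 0.12, edgeR FDR 1.8e-10), and the EMT transcription factor gene *ZEB1* had 2.53, 2.07 and 1.74 CPM in *WT* and 7.48, 7.03 and 6.02 CPM in *miR-34abc-KO* cells (log2 fold change 1.70, SE 0.16, edgeR FDR 2.98e-07). These 3 mRNAs were in every library of *miR-34abc-KO* cells at least 2-fold above *WT*. *THBS1*, which encodes an anti-angiogenic matrix protein, had 17.3, 16.8 and 15.9 CPM in *WT* and 67.8, 59.9 and 62.6 CPM in *miR-34abc-KO* cells (log2 fold change 1.93). The opposite direction was seen for *FN1*, the fibronectin gene, with 18.9, 15.7 and 20.1 CPM in *WT* and 12.5, 10.5 and 10.9 CPM in *miR-34abc-KO* cells (log2 fold change −0.70, SE 0.10, edgeR FDR 3.87e-05), for *LAMB1*, a laminin chain gene, with 176, 172 and 186 CPM in *WT* and 101, 97.7 and 98.4 CPM in *miR-34abc-KO* cells (log2 fold change −0.85), and for the matrix protease gene *MMP7* (log2 fold change −2.12). *THBS2*, a relative of *THBS1*, had 2 counts in the *miR-34abc-KO* libraries together and 11 to 18 in each *WT* library, 19.2-fold lower (5.01 to 164). *NCAM1* fell by 0.73 with overlapping libraries (edgeR FDR 0.0496), and it did not pass with 1 of 5 libraries left out (*WT* replicates 1, 2 and 3 with −0.66, −0.71 and −0.81, and *miR-34abc-KO* replicates 2 and 3 with −0.58 and −0.55) or with replicate numbers as a block (−0.74). *SNAI2* (SLUG) had less than 0.4 CPM in every library. Fibroblast markers summed to more in *miR-34abc-KO* cells as given above, with *COL1A1* called higher (log2 fold change 0.93). The part of other cells in these values was not tested, and *DCN*, *LUM* and *COL1A2* had at most 3 counts. When RUVg was applied, *FN1* (−0.79), *MMP7* (−0.48) and *NCAM1* (−0.06) did not pass and 3 members fell in place of 5, and with the identical library kept under its 5-FU label 13 members rose in place of 20.

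Epithelial genes showed the smaller shift. Of 64 genes of junctions, keratins and epithelial transcription factors 10 (15.6%) fell and 2 (3.1%) rose, at a median of −0.09. Over all genes the shares were 4.97% and 9.1%. *CDH1*, the E-cadherin gene, had 127, 121 and 132 CPM in *WT* and 119, 106 and 112 CPM in *miR-34abc-KO* cells (log2 fold change −0.18), below the minimum, and the epithelial adhesion gene *EPCAM* had 428, 443 and 425 CPM in *WT* and 426, 407 and 428 CPM in *miR-34abc-KO* cells, with overlapping libraries. *KRT20*, a keratin gene of differentiated colonocytes, had 6.25, 5.82 and 7.47 CPM in *WT* and 1.42, 1.49 and 1.09 CPM in *miR-34abc-KO* cells (log2 fold change −2.31, SE 0.17, edgeR FDR 1.56e-08), and the tight junction genes *CLDN3* (37.9, 37.2 and 39.8 CPM in *WT* and 14.9, 15.2 and 18.1 CPM in *miR-34abc-KO* cells) and *OCLN* (61.9, 60.3 and 63.3 CPM in *WT* and 39.8, 40.3 and 42.1 CPM in *miR-34abc-KO* cells) had log2 fold changes of −1.25 and −0.60. All libraries of *miR-34abc-KO* cells were below *WT* for these 3. The epithelial transcription factor genes *OVOL1*, *GRHL3* and *HNF4A* fell by 0.95, 1.31 and 1.26, whereas *ELF3* had 154, 156 and 153 CPM in *WT* and 147, 149.7 and 162 CPM in *miR-34abc-KO* cells. In the higher direction, *CLDN2*, a pore-forming claudin gene, had 2.74, 2.6 and 2.55 CPM in *WT* and 7.56, 7.62 and 8.03 CPM in *miR-34abc-KO* cells (log2 fold change 1.56), and *KRT23* rose by 0.95. The abundant keratin gene *KRT8* had overlapping libraries (log2 fold change 0.10), and *CLDN1* had 1 to 4 counts in each *miR-34abc-KO* library and 5 counts in the *WT* libraries together. With the RUVg factor removed, *GRHL3* (−1.41), *HNF4A* (−2.13), *OCLN* (−0.27), *CLDN2* (0.77) and *KRT23* (1.25) did not pass, and the median was −0.19. Without *WT* replicate 3 it was −0.06.

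Of 21 targets of Wnt signaling and stem cell genes tested, 3 (14.3%) rose and 1 (4.76%) fell, against 9.1% and 4.97% of all genes (median 0.01). *RNF43*, a ubiquitin ligase gene that removes Wnt receptors, had 23.7, 25.2 and 25.5 CPM in *WT* and 65.8, 72.6 and 63.9 CPM in *miR-34abc-KO* cells (log2 fold change 1.44, SE 0.07, edgeR FDR 1.17e-10), and the surface marker gene *ALCAM* (CD166) had 96, 100.3 and 97.3 CPM in *WT* and 192, 184 and 186 CPM in *miR-34abc-KO* cells (log2 fold change 0.94). *AXIN2* is given above. *EPHB3*, a receptor gene of crypt positioning, fell by 0.64 (SE 0.10), and *DKK1*, a secreted Wnt inhibitor gene, had 689.7, 705 and 717 CPM in *WT* and 484, 464 and 501 CPM in *miR-34abc-KO* cells (log2 fold change −0.54), below the minimum.

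In the TGF-β and BMP pathways, 7 of 32 genes (21.9%) rose and 2 (6.25%) fell, against 9.1% and 4.97% of all genes (median 0.11). The genes that rose include ligands, and both that fell are BMP target genes. *BMP4* had 58.7, 57.3 and 56.2 CPM in *WT* and 108, 107 and 111 CPM in *miR-34abc-KO* cells (log2 fold change 0.92, SE 0.06, edgeR FDR 2.08e-09), and *TGFB2* is described above. The feedback inhibitor gene *PMEPA1* had 0.433, 0.706 and 0.666 CPM in *WT* and 1.8, 0.766 and 1.94 CPM in *miR-34abc-KO* cells (log2 fold change 1.33), and *FST* (follistatin), at less than 1 CPM, one of 1.59 with overlapping libraries. *FST* did not pass without *WT* replicate 3 (1.13) or *miR-34abc-KO* replicate 2 (1.18). The BMP-responsive inhibitors of differentiation *ID2* (49.1, 45 and 42.4 CPM in *WT* and 22.3, 19.8 and 21.5 CPM in *miR-34abc-KO* cells) and *ID3* (78, 77.5 and 78 CPM in *WT* and 40.9, 43.2 and 36.5 CPM in *miR-34abc-KO* cells) fell by 1.10 and 0.95, and *ID1* had a log2 fold change of −0.36 (SE 0.06), below the minimum. *ID2* overlaps *ID2-AS1*, which also fell (−0.75). After removal of the RUVg factor, *PMEPA1* (2.36) and *FST* (1.74) did not pass, and 5 genes fell in place of 2.

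ERK-dependent immediate early and feedback genes were split. Of 42 members 7 (16.7%) rose and 9 (21.4%) fell, against 9.1% and 4.97% of all genes, and the median was 0.00. All 4 early growth response genes fell. *EGR1* had 84.6, 101 and 91.8 CPM in *WT* and 43.6, 38.2 and 36.2 CPM in *miR-34abc-KO* cells (log2 fold change −1.24, SE 0.08, edgeR FDR 5.42e-09), *EGR3* had 2.35, 2.6 and 2.29 CPM in *WT* and 0.961, 0.852 and 0.724 CPM in *miR-34abc-KO* cells (log2 fold change −1.51), and *EGR4* had 10 to 13 counts in each *WT* library and 0 in *miR-34abc-KO* cells, at least 3.49-fold lower. *FOS*, the AP-1 subunit gene, had 10.3, 13.8 and 12.8 CPM in *WT* and 6.18, 6.86 and 7.11 CPM in *miR-34abc-KO* cells (log2 fold change −0.87). In these genes the libraries of the genotypes did not overlap. The ephrin receptor gene *EPHA4* fell by 1.62 (SE 0.23). In the other direction, *DUSP4*, a nuclear MAP kinase phosphatase gene, had 181, 181 and 192 CPM in *WT* and 332, 334 and 343 CPM in *miR-34abc-KO* cells (log2 fold change 0.86, SE 0.05, edgeR FDR 1.08e-09), *IER3* and *SPRY1* rose by 0.81 and 0.74, and the orphan nuclear receptor gene *NR4A2* had 12.3, 12.1 and 14.2 CPM in *WT* and 25.6, 23.5 and 24.5 CPM in *miR-34abc-KO* cells (log2 fold change 0.93). *DUSP6* and *ETV4*, common readouts of ERK activity, had log2 fold changes of 0.28 and −0.02 (edgeR FDR 0.000335 and 0.776). *NR4A3* rose by 0.92 with overlapping libraries, and it did not pass without any 1 of *WT* replicates 1, 2 and 3 (0.92, 0.98 and 0.85) or of *miR-34abc-KO* replicates 1 and 2 (1.0 and 0.45). In the RUVg fit, *NR4A2* (0.50), *NR4A3* (0.18), *EGR3* (−1.51), *EGR4* and *FOS* (−0.82) did not pass, and the median of the list was −0.36.

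Among 15 genes of EGFR ligands, receptors and regulators, 2 rose and 2 fell, each 13.3% against 9.1% and 4.97% of all genes (median −0.29). *EREG*, the epiregulin gene, which encodes a major EGFR ligand of colorectal cells, had 916, 870.2 and 932 CPM in *WT* and 329, 310.1 and 316 CPM in *miR-34abc-KO* cells (log2 fold change −1.51, SE 0.07, edgeR FDR 1.19e-10). Every *miR-34abc-KO* library was far below the lowest *WT* library. The amphiregulin gene *AREG* had 137, 141 and 141 CPM in *WT* and 109, 109 and 107 CPM in *miR-34abc-KO* cells (log2 fold change −0.37), below the minimum, and *EPGN* (epigen) fell by 2.02 at less than 1 CPM. *EGF* had 1.66, 1.99 and 1.51 CPM in *WT* and 4.55, 4.43 and 4.28 CPM in *miR-34abc-KO* cells (log2 fold change 1.38), and *LRIG1*, a negative regulator of EGFR, had 6.57, 5.6 and 6.63 CPM in *WT* and 12.9, 12.5 and 13.1 CPM in *miR-34abc-KO* cells (log2 fold change 1.03). With the RUVg factor removed *EPGN* (−1.79) and *LRIG1* (0.30) did not pass, 1 gene rose and 1 fell, and the median was −0.05.

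Interferon-stimulated genes, which cells induce upon viral RNA or interferon, were often lower. Of 30 such genes tested 12 (40%) fell and 1 (3.33%) rose, against 4.97% and 9.1% of all genes (median log2 fold change −0.55). By contrast, of 13 antigen presentation genes 0 passed in either direction. *OAS1*, a sensor of double-stranded RNA, had 6.61, 5.21 and 6.25 CPM in *WT* and 0.794, 1.15 and 1.61 CPM in *miR-34abc-KO* cells (log2 fold change −2.31, SE 0.22, edgeR FDR 4.56e-07). The membrane restriction factors *IFITM1* (17, 17.7 and 17.6 CPM in *WT* and 5.05, 5.28 and 4.25 CPM in *miR-34abc-KO* cells) and *BST2* (14.1, 13.2 and 15.1 CPM in *WT* and 4.05, 5.11 and 4.97 CPM in *miR-34abc-KO* cells) had log2 fold changes of −1.85 and −1.58. All 3 were lower in every *miR-34abc-KO* library. *PARP9* fell by 1.05 (SE 0.08), as did *DTX3L*, which overlaps it on the other strand (−0.97). *IFI44* fell by 0.96 (edgeR FDR 0.0284), and it did not pass without *WT* replicate 1 (−0.97) or 3 (−0.80) or *miR-34abc-KO* replicate 2 (−0.80) or 3 (−0.99). *ISG15* and *IFIT1*, common readouts of the response, had overlapping libraries at 74.2, 76.1 and 68.1 CPM in *WT* and 61.6, 71.1 and 71.5 CPM in *miR-34abc-KO* cells and at 19.7, 16.7 and 20.1 CPM in *WT* and 17.8, 19.1 and 19.4 CPM in *miR-34abc-KO* cells. *HLA-B* and *TAP1* of antigen presentation had log2 fold changes of 0.21 and 0.14, below the minimum. The member that rose was *ISG20*, an exonuclease gene (2.2, 3.0 and 3.33 CPM in *WT* and 5.26, 5.71 and 5.53 CPM in *miR-34abc-KO* cells). Of 22 NF-κB targets and chemokines 2 (9.09%) rose and 1 (4.55%) fell, near the 9.1% and 4.97% of all genes (median 0.14, and −0.02 with 20 counts in every library, 0.06 with the DMSO libraries alone or RUVg, and 0.07 without *WT* replicate 3). *CXCL8* (interleukin-8) had 0.866, 0.441 and 0.637 CPM in *WT* and 2.8, 2.43 and 1.74 CPM in *miR-34abc-KO* cells (log2 fold change 1.81), *PTGS2* (cyclooxygenase-2) rose by 2.15 at about 1 CPM or less, and *CXCL1* had a log2 fold change of 0.74 (edgeR FDR 0.128). *TRAF1*, in a stretch of chromosome 9 with many higher mRNAs, fell by 0.71 and did not pass without *miR-34abc-KO* replicate 3 (−0.54). When RUVg was applied, *IFI44* (−0.08), *ISG20* (0.84), *PTGS2* (2.14) and *TRAF1* (−0.22) did not pass, and of the interferon and antigen presentation genes together 8 fell in place of 12, with a median of −0.13 in place of −0.30.

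**Figure D3:**
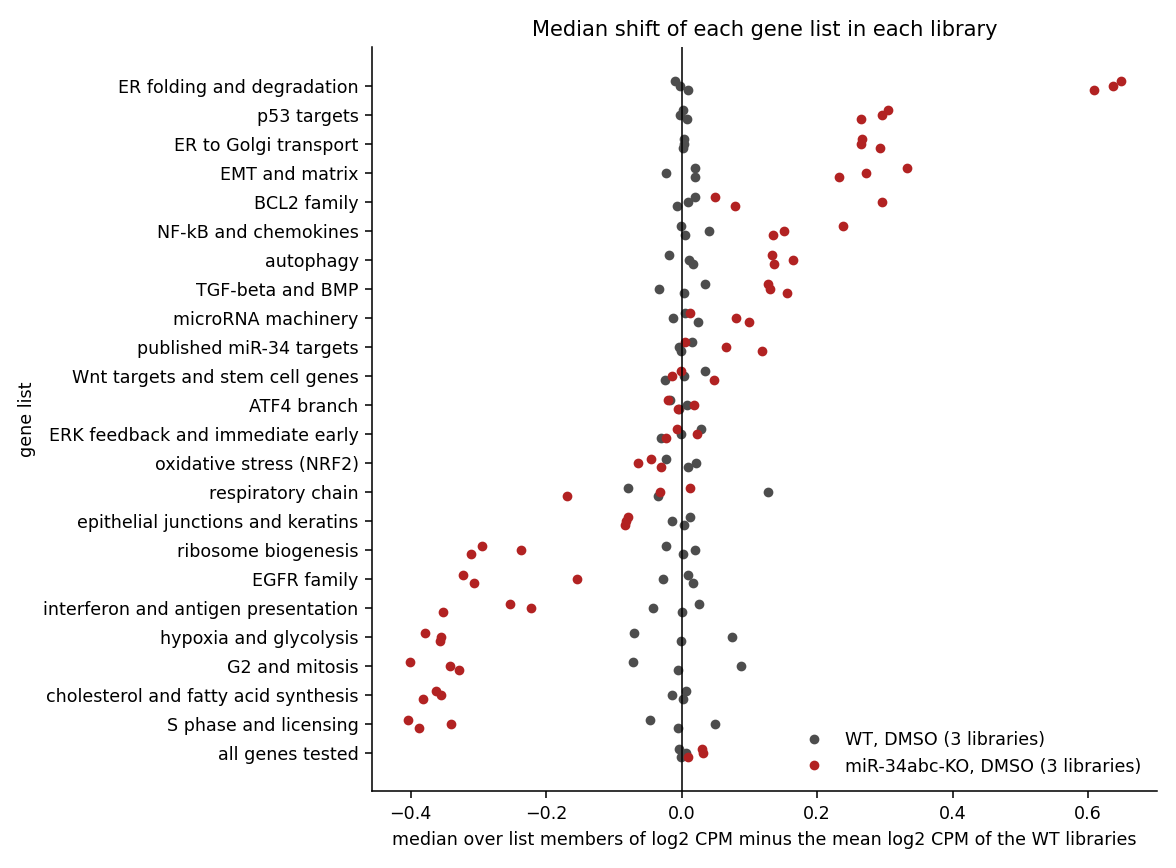
Median log2 CPM of each gene list in each DMSO library, as the difference from the *WT* mean. The *miR-34abc-KO* libraries lie at 0.609 to 0.649 for ER folding and at −0.404 to −0.341 for S phase and licensing, while the *WT* libraries stay within 0.0496 of 0 for these lists.

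Genes of lipid synthesis were mostly lower. Of 36 genes of cholesterol and fatty acid synthesis 9 (25.0%) fell and 1 (2.78%) rose, against 4.97% and 9.1% of all genes. By the FDR alone 27 were lower, against 21.9% of all genes, and the median log2 fold change was −0.37. *SQLE*, the squalene epoxidase gene, had 161, 157 and 164 CPM in *WT* and 42.4, 38 and 41.1 CPM in *miR-34abc-KO* cells (log2 fold change −1.99, SE 0.06, edgeR FDR 3e-13) and lies in the lower stretch of chromosome 8. *FDFT1* (squalene synthase) had 232, 221 and 224 CPM in *WT* and 104, 103 and 104 CPM in *miR-34abc-KO* cells (log2 fold change −1.12), *IDI1* (isopentenyl diphosphate isomerase) had 112, 112 and 114 CPM in *WT* and 57.7, 56.9 and 59.4 CPM in *miR-34abc-KO* cells (log2 fold change −0.96), and *MSMO1* and *HMGCS1*, which act later and earlier in sterol synthesis, fell by 0.83 and 0.74. *FASN*, the fatty acid synthase gene, had 1567, 1574 and 1690.0 CPM in *WT* and 1015, 1023 and 948 CPM in *miR-34abc-KO* cells (log2 fold change −0.69, SE 0.07, edgeR FDR 4.69e-07), and *SCD*, the stearoyl-CoA desaturase gene, had 2620.0, 2667 and 2579 CPM in *WT* and 1910.0, 1893 and 1896 CPM in *miR-34abc-KO* cells (log2 fold change −0.46), below the minimum. The gene that rose was *FADS2*, a desaturase of polyunsaturated fatty acids (13.2, 14.9 and 14 CPM in *WT* and 28.2, 27.2 and 26 CPM in *miR-34abc-KO* cells). With the RUVg factor removed, *MSMO1* (−0.43) and *HMGCS1* (−0.46) did not pass.

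Hypoxia and glycolysis genes were lower as well, 10 of 38 (26.3%) falling and 1 (2.63%) rising, against 4.97% and 9.1% of all genes. By the FDR alone 27 were lower, against 21.9% of all genes, at a median of −0.35. *NDRG1*, a hypoxia-inducible growth regulator, had 308, 324 and 274 CPM in *WT* and 118, 117 and 121 CPM in *miR-34abc-KO* cells (log2 fold change −1.34, SE 0.07, edgeR FDR 1.32e-10), and *CA9*, the carbonic anhydrase gene used as a marker of hypoxia, had 1 count in *miR-34abc-KO* cells against 16 to 20 in each *WT* library, 50.4-fold lower (8.68 to 2030). The peptide hormone gene *ADM* had 53.9, 55.4 and 42.3 CPM in *WT* and 29.2, 30.8 and 28.7 CPM in *miR-34abc-KO* cells (log2 fold change −0.77), and the mitophagy receptor gene *BNIP3* had 69, 73.3 and 63.5 CPM in *WT* and 34.8, 38.9 and 41.4 CPM in *miR-34abc-KO* cells (log2 fold change −0.83). For each of these 4 the genotypes did not overlap. *NDRG1* (chromosome 8, start 133237175) lies between the windows of 120 to 130 Mb and 140 to 150 Mb, in which many mRNAs were lower. Its own 10 Mb window held fewer than 20 genes and was not assessed. *ANKRD37* fell by 1.15, whereas *VEGFA* (−0.18), *HK2* (−0.34) and *PFKFB4* (−0.50) were below the minimum. The member that rose was the glucose transporter gene *SLC2A1* (GLUT1), with 64.7, 70.4 and 62.8 CPM in *WT* and 211, 213 and 216 CPM in *miR-34abc-KO* cells (log2 fold change 1.69, SE 0.06, edgeR FDR 9.29e-12). With the RUVg factor removed *ADM* (−0.87) and *ANKRD37* (−0.35) did not pass, and 6 members fell in place of 10. Of 26 genes of the NRF2 antioxidant response 5 (19.2%) rose and 1 (3.85%) fell, against 9.1% and 4.97% of all genes. The median was −0.05, and −0.01 and −0.03 without *WT* or *miR-34abc-KO* replicate 2. *NQO1*, a quinone reductase gene, had 245, 261 and 232 CPM in *WT* and 352, 368 and 386 CPM in *miR-34abc-KO* cells (log2 fold change 0.59), *EPHX1* and *ABCC3* rose by 0.60 and 0.76, and *HMOX1* had 13.9, 13.8 and 12 CPM in *WT* and 16.4, 17.6 and 18.1 CPM in *miR-34abc-KO* cells, below the minimum at a log2 fold change of 0.40. The aldo-keto reductase genes *AKR1B10* and *AKR1C3* differed in opposite directions (1.31 and −1.30). *NQO1* and *EPHX1* stood at the minimum fold change and dropped below it with median-of-ratios scaling, *NQO1* also without *WT* replicates 1 or 3 or *miR-34abc-KO* replicate 3 (0.58, 0.54 and 0.55), and *EPHX1* also without *WT* or *miR-34abc-KO* replicate 1 (0.56 and 0.58). *AKR1B10* did not pass without *miR-34abc-KO* replicate 3 (0.89). After removal of the RUVg factor, *EPHX1* (0.54), *ABCC3* (0.36), *AKR1B10* (1.44) and *AKR1C3* (−0.78) did not pass, 2 members rose in place of 5 and 0 fell.

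Autophagy genes were called at rates near those of all genes, 7 of 63 (11.1%) higher and 3 (4.76%) lower against 9.1% and 4.97%. By the FDR alone 28 were higher and 9 lower, against 24.5% and 21.9% of all genes. Increases were thus more frequent than over all genes, but most were below the minimum fold change. The median log2 fold change of the list was 0.13. *RETREG1*, a receptor of ER-phagy, had 6.06, 5.82 and 6.66 CPM in *WT* and 13.8, 14.4 and 16.2 CPM in *miR-34abc-KO* cells (log2 fold change 1.26, SE 0.09, edgeR FDR 2.62e-08), and another such receptor, *CCPG1*, had 13.5, 10.1 and 12.1 CPM in *WT* and 23.2, 23 and 25.2 CPM in *miR-34abc-KO* cells (log2 fold change 1.0). *WIPI1*, which binds the growing autophagosome membrane, rose by 0.84, together with *ARSG* on the other strand (1.08). *ATG16L1*, in the higher stretch of chromosome 2, rose by 0.80. *ATG12*, the ubiquitin-like modifier of ATG5, fell by 0.89 (234, 228 and 232 CPM in *WT* and 122, 123 and 130.2 CPM in *miR-34abc-KO* cells), and the gene overlapping it, *AP3S1*, also fell (−0.75). The initiating kinase gene *ULK1*, *MAP1LC3B* (LC3B), *ATG9A* and *SQSTM1* (p62) had log2 fold changes of 0.16, −0.10, 0.19 and 0.47, none above the minimum. *ATG12* (−0.54) and *WIPI1* (0.65) did not pass with the RUVg factor removed.

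Genes of ribosome biogenesis and of the respiratory chain were examined as housekeeping groups. Of 29 ribosome biogenesis genes 0 rose and 2 (6.9%) fell, against 9.1% and 4.97% of all genes. The genes that fell were *BOP1* (220.3, 221 and 224 CPM in *WT* and 116, 125 and 122 CPM in *miR-34abc-KO* cells) and *MYC*, both in the lower stretches of chromosome 8. By the FDR alone 23 were lower, against 21.9% of all genes (median −0.29). In the RUVg fit 4 fell. *NCL*, the nucleolin gene, had a log2 fold change of −0.42 (SE 0.05). Of 71 respiratory chain subunits 1 (1.41%) rose and 2 (2.82%) fell, against 9.1% and 4.97% of all genes (median −0.07). The median was 0.0019 without *WT* replicate 2 and 0.0086 without *miR-34abc-KO* replicate 1, and in the RUVg fit it was −0.22 and 4 fell. *NDUFA10* (65.4, 61 and 60.3 CPM in *WT* and 118, 118 and 115 CPM in *miR-34abc-KO* cells) lies in the higher stretch of chromosome 2 and *CYC1* (344, 364 and 336 CPM in *WT* and 199, 220.4 and 210.5 CPM in *miR-34abc-KO* cells) in a lower stretch of chromosome 8. *NDUFC2* fell by 0.91 outside such stretches. Among the called mRNAs with the most reads, which were not corrected for gene length, *AKAP12*, a scaffold of protein kinase A signaling, had 4045, 3733 and 4091 CPM in *WT* and 2222, 2138 and 2213 CPM in *miR-34abc-KO* cells (log2 fold change −0.85, SE 0.04, edgeR FDR 1.32e-10). The architectural chromatin gene *HMGA1* had 2263, 2444 and 2431 CPM in *WT* and 1531, 1606 and 1550.0 CPM in *miR-34abc-KO* cells (log2 fold change −0.61), the mitochondrial chaperonin gene *HSPD1* had a log2 fold change of −0.61, and the ribosomal protein gene *RPL8* of chromosome 8 had one of −0.62, which fell below the minimum without *WT* replicate 2 (−0.57) or *miR-34abc-KO* replicate 1 (−0.55). On the higher side, *YBX1*, an RNA-binding protein gene, had 888, 935 and 875 CPM in *WT* and 1415, 1505 and 1488 CPM in *miR-34abc-KO* cells (log2 fold change 0.71), beside *P4HB*, *CALR*, *HSP90B1* and *HSPA5* of the ER. *HSPD1* (−0.22) and *YBX1* (0.54) did not pass with the RUVg factor removed.

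Neighboring genes shared their direction in a few stretches of the genome, and this touches several of the genes named above. Genes with a mean of at least 1 CPM were grouped into windows of 10 Mb with at least 20 genes (229 windows, GRCh38), and the median log2 fold change passed 0.3 in size in 9 of them. On chromosome 8 the median was −0.74 from 120 to 130 Mb, where 18 of 31 genes fell, −0.49 from 140 to 150 Mb (35 of 81 fell) and −0.44 from 100 to 110 Mb (13 of 31 fell), but 0.38 from 90 to 100 Mb (9 of 39 rose). On chromosome 2 the median was 1.02 from 240 to 250 Mb, where 20 of 22 genes rose, 0.80 from 230 to 240 Mb (28 of 47) and −0.31 from 160 to 170 Mb (4 of 24 fell). On chromosome 9 it was 0.56 from 130 to 140 Mb (56 of 117 rose) and 0.32 from 120 to 130 Mb (38 of 114). The 9 windows hold 567 of the genes tested, with 170 called higher and 79 lower. In the other 15556 genes 8.34% were called higher and 4.65% lower. These include genes without a position (14368 of the 16123 tested had one) and genes in windows with too few genes to be assessed. Outside the windows 20 of 40 ER folding genes rose, 13 of 49 p53 targets rose, 12 of 42 interferon and antigen presentation genes fell, 8 of 35 lipid synthesis genes fell, and 6 of 54 published miR-34 targets rose. The targets *MYC*, *NOTCH1* and *ATG4B* lie inside. The cause of the shared direction was not tested.

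**Figure D4:**
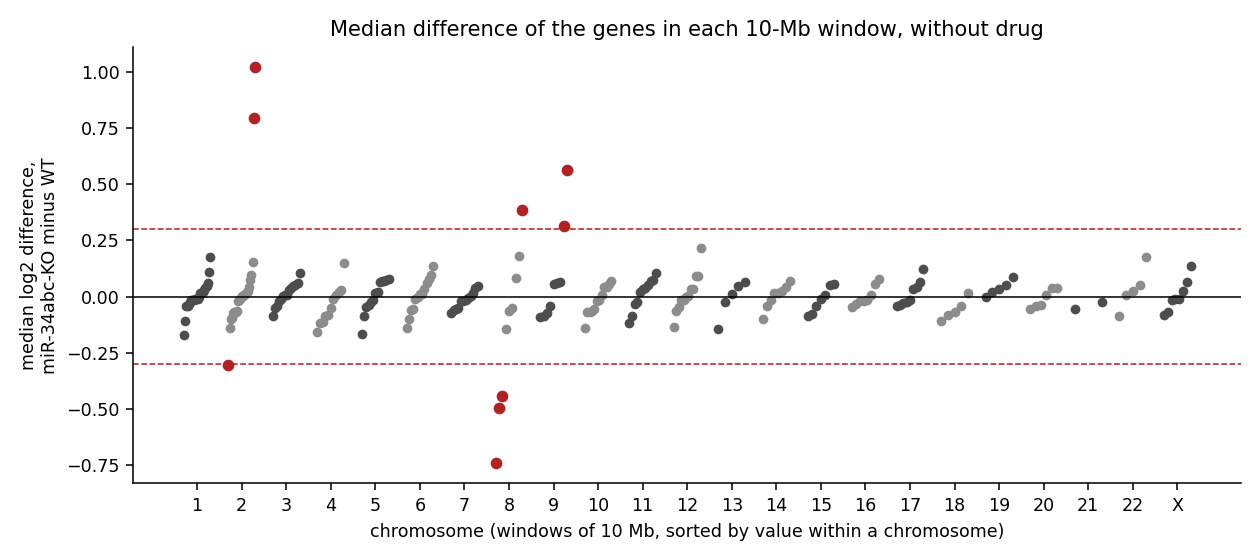
Median log2 fold change (*miR-34abc-KO* minus *WT*, DMSO) of the genes in each 10 Mb window, by chromosome and sorted by value within a chromosome, with lines at 0.3 and −0.3. Of 229 windows 9 pass the lines, and they lie on chromosomes 2, 8 and 9, with the highest at 1.02 and the lowest at −0.74.

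The same contrast under 5-FU, a pyrimidine analog that activates p53, was set beside these differences. It uses 2 *WT* and 3 *miR-34abc-KO* libraries and shares no library with the DMSO contrast. Under 5-FU 1222 genes (7.58%) were called higher and 1702 (10.6%) lower. Of the 1467 mRNAs that were higher in DMSO, 1233 (84.0%) had the same sign under 5-FU and 582 (39.7%) were called higher again, and their median log2 fold change was 0.95 in DMSO and 0.52 under 5-FU. Of the 802 lower mRNAs, 739 (92.1%) had the same sign, 537 (67.0%) were called lower again, and the medians were −0.91 and −0.97. The difference between the contrasts was tested as an interaction and was called for 1624 of all genes (10.1%). Among the mRNAs higher in DMSO it was called for 392, in 382 of them because the difference was smaller or opposite under 5-FU, and among the lower ones for 141, in 91 of them for the same reason. These mRNAs were chosen by their values in DMSO, which by itself favors smaller values in a second contrast.

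**Figure D5:**
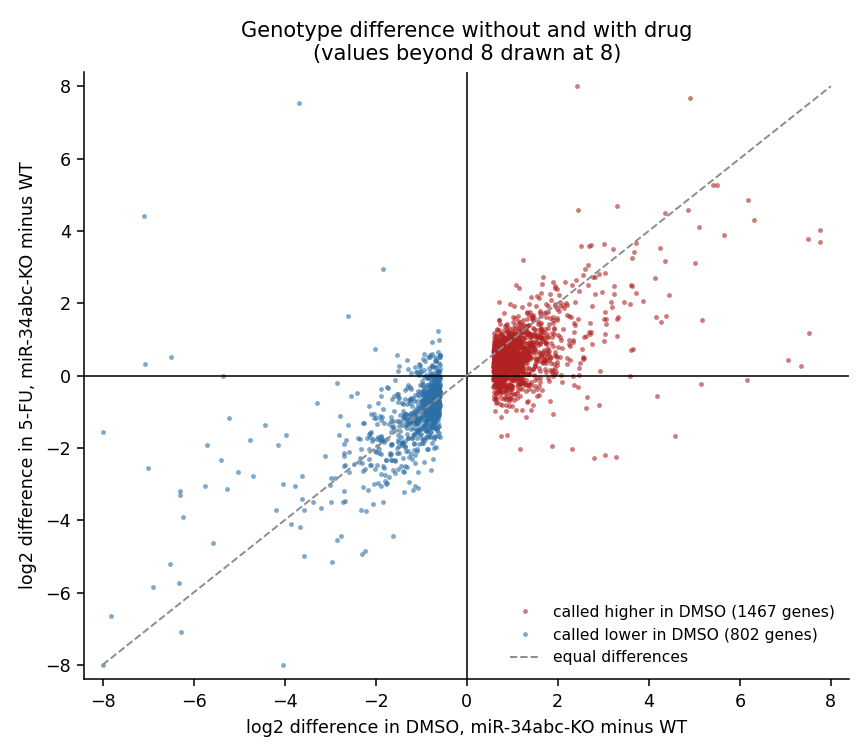
Log2 fold change (*miR-34abc-KO* minus *WT*) under 5-FU (vertical axis) against that in DMSO (horizontal axis) for the 1467 genes called higher (red) and the 802 called lower (blue) in DMSO, with values beyond 8 drawn at 8 and a dashed line of equal differences. The red points have a median of 0.95 in DMSO and 0.52 under 5-FU and lie mostly below the line, while the blue points (−0.91 and −0.97) lie around it.

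The ER genes named here were higher under both treatments, some by a different amount. The log2 fold changes were 0.83 in DMSO and 0.85 under 5-FU for *HSPA5*, and 1.75 and 1.62 for *SEC24D* (interaction FDR 0.832 and 0.33, edgeR). By contrast, *HERPUD1* (0.74 and 0.39), *CREB3L2* (1.40 and 0.97) and *SDF2L1* (0.96 and 0.58) had smaller differences under 5-FU, and *DNAJB9* (1.84 and 2.26) and *XBP1* (0.41 and 0.82) larger ones. The interaction FDRs of these 5 in edgeR were 0.0063, 0.00226, 0.0469, 0.00739 and 0.00738, but the differences were below the minimum fold change. The same held for *FASN* (−0.69 and −1.08, interaction FDR 0.0109). For *MIR34AHG* (2.19 and 1.99), *ZEB1* (1.70 and 1.72) and *NOTCH1* (0.80 and 0.85) the interaction FDRs were 0.23, 0.969 and 0.774, with differences of −0.19 (SE 0.11), 0.02 (SE 0.24) and 0.05 (SE 0.11). The p53 targets *CDKN1A* (1.49 in DMSO and 0.26 under 5-FU) and *MDM2* (0.45 and −0.46) differed between the treatments, at interaction FDRs of 1.41e-08 and 4.79e-06 in edgeR. In the cell cycle lists the median changed its sign, from −0.38 in DMSO to 0.41 under 5-FU for S phase and licensing and from −0.35 to 0.10 for G2 and mitosis. *RRM2* (−0.38 and 0.71), *CDC6* (−0.10 and 0.84) and *E2F1* (−0.17 and 0.93) passed the interaction test, at FDRs of 2.11e-07, 7.59e-07 and 1.26e-05 in edgeR. The median of the interferon-stimulated genes was −0.55 in DMSO and −0.85 under 5-FU, and that of ER folding 0.64 and 0.42. Medians are set side by side without a test. With the identical library kept under its 5-FU label, 428 genes passed the interaction test in place of 1624.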

How the data were processed

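RNA of HCT116 cells (*WT* and *miR-34abc-KO*, DMSO or 5-FU for 48 h, 3 labelled libraries per state) was sequenced by the authors, who mapped the reads with CLC Genomics Workbench to GRCh38 and its ENSEMBL annotation. The authors deposited raw counts, 1 value per gene symbol, without normalization. Whether strand was used in counting is not given in the sources used here. The groups follow the sample titles. Of 12 libraries, 11 were fitted, since 1 was identical to another in all symbols.

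A gene was tested if 1 library or more reached 20 counts (16123 genes). Upper-quartile factors (0.955 to 1.05) scaled the libraries, and the counts were fitted in edgeR 4.0.16 (R 4.3.3) by its quasi-likelihood method, with a mean per state. Tests were two-sided with Benjamini-Hochberg adjustment over all genes (FDR), and a call required FDR < 0.05 and a fold change > 1.5. Scaling and thresholds follow the study's methods, whose RUVg step was an alternative. CPM were computed from the scaled totals, and SE was derived from the F statistic. On simulated counts of the same 16123 genes the script recovered 49 of 50 genes raised 2-fold. The changed genes were drawn from those with more than 50 expected counts, and the spread came from the fitted model. Changes in genes with fewer counts and differences between clones were not simulated. Alternatives were TMM and median-of-ratios scaling, DESeq2 1.42.0, other filters, DMSO libraries alone, the identical library kept, RUVg, a replicate block, each replicate left out, and other fold limits.

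Of the symbols, 37636 were matched to 1 position in GENCODE release 44 (510 by an older symbol). The members and gene lists were chosen with earlier results of these data known. Genes named were the 12 with the largest and the 12 with the smallest called fold change at 1 CPM or more with separated groups, key genes of each list and up to 5 called members per direction, genes that no library of a genotype held above 3 counts while each library of the other held 20 or more, and the 5 most abundant called genes per direction. Some of the genes that this rule selects are not reported here.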

Additional observations from a re-analysis of the deposited data

Results flagged for a closer look

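The genotype difference was compared between DMSO and 5-FU for 112 of the named genes. Of these, 37 passed the interaction test of edgeR (FDR < 0.05 and a fold change > 1.5 between the treatments). Over all genes 1624 (10.1%) passed it. Some of the 112 genes were chosen by their differences in DMSO, which the interaction subtracts. That choice by itself favors passing, so that the shares cannot be compared. The values below are the log2 fold change of *miR-34abc-KO* against *WT* under 5-FU minus that in DMSO, so that a negative value stands for a difference that was lower under 5-FU. Their cause was not tested, and the *WT* cells under 5-FU were represented by 2 libraries.

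Among the genes with the largest differences in DMSO, the value was −4.08 for *TCF21*, −3.73 for *MIA*, −2.0 for *TARID*, −3.66 for *FSTL5*, −2.22 for *STK32A* and −1.44 for *TGFB2*, all still above 0 under 5-FU. It was 6.51 for *LY6K* and 1.92 for *ZNF525*, which were lower in *miR-34abc-KO* cells under both treatments. *LY6K* had 0 counts in every *miR-34abc-KO* library in DMSO, so that the counts do not fix the size of its value. *TCF21*, *MIA*, *FSTL5* and *STK32A* had at most 3 counts in each *WT* library in DMSO, and the sizes of their values are imprecise. For the read-through transcript *INO80B-WBP1* the value was 11.22, with a log2 fold change of −3.69 in DMSO and 7.54 under 5-FU. This transcript had 0 CPM in the *WT* libraries under 5-FU, so that the size of its value is not fixed either. Its reads cannot be told apart from those of the genes it spans.

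Of the published targets and survival genes, *IL6R* had −0.67, *BCL2* 0.99 and *BCL2L1* −0.77. For these genes of the ATF4 branch the genotype difference was lower under 5-FU, with −0.74 for *ATF4*, −1.22 for *ASNS*, −1.10 for *PHGDH*, −1.44 for *SLC7A11* and −2.42 for *CHAC1*. *SLC7A11* and *CHAC1* were called higher in DMSO and lower under 5-FU. The p53 targets *CDKN1A* and *MDM2* had −1.24 and −0.92.

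The genotype difference of several replication and mitosis genes was higher under 5-FU, with 0.79 for *MCM2*, 0.94 for *CDC6*, 1.09 for *RRM2*, 1.10 for *E2F1*, 0.65 for *CCNE1*, 0.64 for *TOP2A* and 0.92 for *MKI67*, whereas *PLK1* (−0.46) and *CCNB1* (−0.08) did not pass. These values compare the genotypes and are not levels. The growth factor and immediate early genes *AREG*, *EREG*, *FOS* and *EGR1* had values of 1.02, 0.92, 0.82 and 0.87.

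The other genes that passed were *VIM* (−0.97), *FN1* (−0.99), *SCD* (−0.72), *IFIT1* (−1.07), *CXCL8* (−1.24) and *BMP4* (−0.81), and for *PFKFB4* (0.73).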

How the results depend on the processing

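The 2269 calls rest on a minimum fold change and on the spread between 3 libraries a genotype, whose origin from separate clones is not stated. Without the minimum 3943 genes were higher and 3529 lower, and with it inside the test (glmTreat) 602 and 327. Requiring 20 counts in every library gave 513 lower genes, with 13191 genes tested. RUVg with 1 factor gave 783 higher genes and an interaction in 885, of which the cause was not tested, and 407 of the 1467 higher (27.7%) and 288 of the 802 lower genes (35.9%) were called in both fits. The identical library kept as labelled gave an interaction in 428. Leaving out 1 replicate gave 1333 to 1463 higher, 749 to 785 lower and 1459 to 1672 interaction genes. All other counts stayed within 1.5 times those reported, including the 645 lower genes with RUVg, and scalings moved the median of all genes to between −0.00152 and 0.0256.

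Samples that share a replicate number deviated with correlations of 0.217, 0.0611 and −0.243, so that the numbers do not pair them. With a replicate block 1450 genes were higher, 799 lower and 1517 differed between treatments, and *NCAM1* alone among the named genes lost its call.

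Of 155 called genes named, 62 lost their call in at least 1 setting, 51 of them with RUVg. With RUVg signs changed in *BBC3* (−0.19), *MET* (0.089), *BCL2* (0.30), *ATG9A* (−0.073), *ATF4* (−0.10), *ASNS* (0.43), *TOP2A* (0.12), *EPCAM* (0.22), *ULK1* (−0.28), *MAP1LC3B* (0.0093), *HMOX1* (−0.072), *IFIT1* (0.24), *HLA-B* (−0.015) and *MCL1* (0.044), of which *BBC3* had been called (0.61). *ELF3* was at 0.00037 with 20 counts in every library, and at −0.059 to 0.014 with 1 library left out (7.04e-05 without *miR-34abc-KO* replicate 2). *IFIT1* was at 0.0057 with 20 counts in every library, and at −0.085 to 0.042 with 1 library left out. *SNAI2* ranged from −1.32 to 0.19 with 1 library left out.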
